A study of Sus scrofa domesticus with 150 samples.

Results

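The wound edge was compared with the wound center on day 13 after wounding, in 12 of the 150 samples of the series. The members were chosen by their labels alone: the 6 samples labelled edge and the 6 labelled center on that day, 1 of each from each of 6 wounds. The series follows full-thickness, circular excisional wounds on the back of domestic pigs (Yorkshire-mix females, age not given in the sources used here) by sequencing the RNA of punch biopsies. The wounds lay under Telfa Clear and Tegaderm dressings, with no other treatment apart from an antibiotic ointment on biopsy sites, and a wound left the experiment after it was sampled. The day 13 wounds are the wounds lettered C and J of 3 animals (1326, 1327 and 1328), written here as 1326C, 1326J, 1327C, 1327J, 1328C and 1328J. Wounds of 1 animal are not independent animals, so p-values describe the spread between 6 wounds nested in 3 animals. Skin excised on day 0 from the 6 animals of the series (6 samples, location not applicable) serves as a reference level, without a test. No photograph of the sampled wounds was analysed here, and how far each wound had closed is not known from the labels.

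In a full-thickness wound the epidermis returns from the margin: keratinocytes migrate inward over a bed of granulation tissue, which is rich in fibroblasts, new vessels and leukocytes. Behind the moving front the epidermis stratifies again, with keratins KRT5 and KRT14 in the basal layer, KRT1 and KRT10 above it, and a cornified layer of cross-linked proteins and lipids at the surface. The bed below is cleared and remodelled by macrophages, proteases and fibroblasts as inflammation subsides.

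Levels below are CPM, counts scaled by each library's total. A log2 fold change is edge over center with its standard error, from edgeR's quasi-likelihood test with the wound as a block (n = 6 wounds). A value alone in parentheses after a gene is its log2 fold change, given in this way for genes that passed the test. The totals were 14236202 to 20281813 counts, so that 3 counts, taken as the lowest level that can be seen, equal 0.148 to 0.211 CPM. This covers counting error only. Mean correlations over genes (Pearson's r) were 0.971 to 0.983 with samples of the same location and 0.921 to 0.966 with samples of the other. Centers of wounds 1326J and 1328C stood closest to the edge samples, with a mean r of 0.966 and 0.965. They also carried the most keratinocyte RNA of the 6 centers: the mean log2(1 + CPM) of 15 basal keratinocyte genes was 8.03 and 7.98 there, against 4.58 to 6.49 in the other 4 centers and 8.02 to 9.03 at the edge. A biopsy mixes tissues, so fewer cells of a type and less RNA per cell cannot be told apart in any value below. For several lists the number of calls is also given without these 2 wounds, a choice made after seeing the data. Single genes are mostly given from the fit with all 6 wounds only. Of the 251 named genes called in that fit, 206 were called without these 2 wounds. MMP1, MMP2, CSF3, TNFAIP3 and INSIG1 were among those that were not.

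Of 14166 genes tested, 4564 (32.2%) differed between edge and center at a Benjamini-Hochberg adjusted p below 0.05. At the edge 2550 (18.0%) were higher and in the center 2014 (14.2%), and with at least 2-fold differences these were 1323 (9.34%) and 723 (5.1%). Scaling to the library totals without TMM called 4501 genes, 2055 higher at the edge and 2446 in the center, so the edge held 55.9% of the calls in the fit used here and 45.7% without TMM. That scaling moved the median log2 fold change of all genes from 0.004 to -0.089. Most tested genes of keratinocyte differentiation, barrier lipid synthesis and cholesterol synthesis were higher at the edge, and most of the macrophage, T and NK lymphocyte, complement and endothelial lists in the center. The chains of type I and type III collagen, which took the largest shares of the counts, did not pass, and 0 of 33 cell cycle genes did. Gene lists are described below by how many of their tested members were called in each direction, beside those 18.0% and 14.2% of all genes, and by their median log2 fold change beside 0.004 for all genes. Whether the edge and center ranges of a gene overlapped is given as a description only. Most named genes were chosen by a low p or a large difference, which favors separate ranges. How many of all tested genes had separate ranges was not counted.

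**Figure D1:**
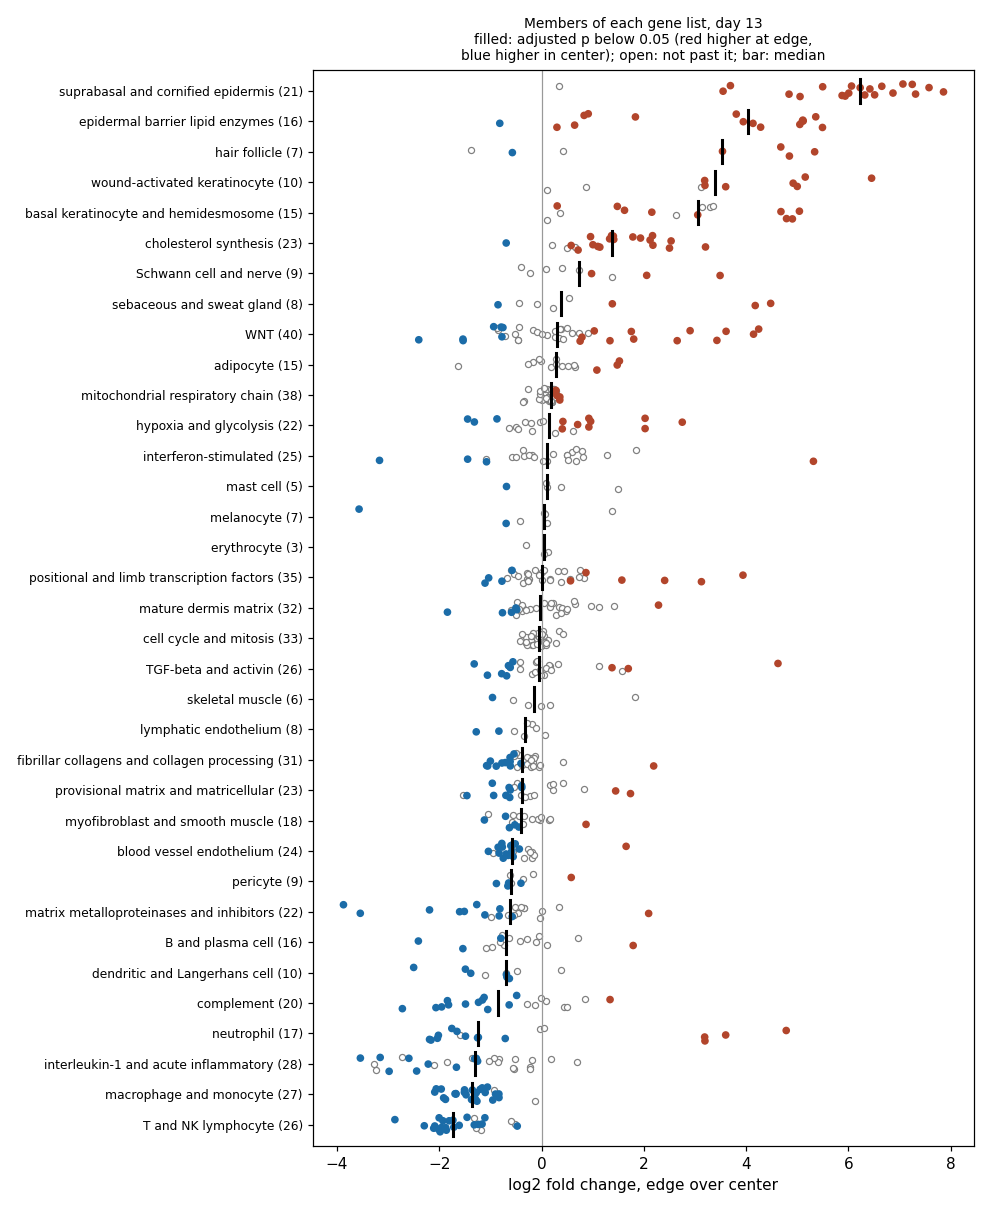
Each point is a tested member of a gene list, placed by its log2 fold change of edge over center on day 13. Filled points passed an adjusted p of 0.05 (red higher at the edge, blue in the center), open points did not, and a bar marks the list's median; numbers in brackets are members tested. The keratinocyte differentiation list sits farthest to the right (median 6.23) and the T and NK lymphocyte list farthest to the left (-1.72).

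Genes of the differentiated epidermis showed the largest differences of the comparison. Of 21 members of the suprabasal and cornified list, 20 were higher at the edge and 0 in the center, with a median log2 fold change of 6.23. The remaining member, TGM3, a transglutaminase of the cornified layer and of hair, stood at 0.35 ± 0.43 (edgeR adjusted p = 0.584). KRT10, the acidic keratin of suprabasal cells, was counted at 1583 to 19991 CPM (median 9693) at the edge and at 7.68 to 128 CPM (median 65.4) in the center. The 2 groups did not overlap, wound 1326J had the lowest edge value, and the edge range met that of day 0 skin, 8890.4 to 27617 CPM (median 18069). Its log2 fold change was 7.25 ± 0.45 (edgeR adjusted p = 6.45e-05). KRT1, the partner of KRT10 in the same filaments, was at 1476 to 18607 CPM (median 7611) at the edge and 4.91 to 157 CPM (median 73.3) in the center (log2 fold change 7.07 ± 0.61, edgeR adjusted p = 0.000219). KRT2, a keratin of the upper spinous and granular layers, reached 11.6 to 2561 CPM (median 1348) at the edge and 0.646 to 25.1 CPM (median 9.44) in the center. The edge of wound 1326J, at 11.6 CPM, lay within the range of the centers while the other 5 edges held 368 CPM or more, and the log2 fold change was 6.87 ± 1.04 (edgeR adjusted p = 0.00185).

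Proteins of the cornified layer, and the junctions and proteases that regulate its shedding, were higher at the edge as well. FLG2 (filaggrin-2), which helps to keep cornified cells together, is given on 2 rows of the table, among which reads may be split. On the first row it was at 31.8 to 211 CPM (median 76.1) at the edge and 0 to 0.532 CPM (median 0.219) in the center (log2 fold change 8.70 ± 0.31, edgeR adjusted p = 9.11e-06), and on the other at 298 to 1501 CPM (median 705) against 0.968 to 9.24 CPM (median 4.28), a log2 fold change of 7.58 ± 0.30. The edge and center ranges were apart on both rows. RPTN (repetin), a cornified envelope protein, had 696 counts over the 6 edge samples and 2 over the 6 centers, a ratio of 344 (exact 95% interval 94.9 to 2848, counting error only). DSC1, a desmosomal cadherin of the upper epidermis, was at 482 to 1398 CPM (median 604) against 0.646 to 10.4 CPM (median 3.52), a log2 fold change of 7.86 ± 0.51 (edgeR adjusted p = 7.67e-05). KLK5, a serine protease that cleaves such junctions at the surface, was at 65.2 to 328 CPM (median 172) against 0.194 to 5.73 CPM (median 2.90), a log2 fold change of 6.23 ± 0.33 (edgeR adjusted p = 3.04e-05). CALML5, a calmodulin-like protein of differentiating keratinocytes, was at 1018 to 1979 CPM (median 1314) against 5.29 to 39.6 CPM (median 18.2), a log2 fold change of 6.32 ± 0.43 (edgeR adjusted p = 8.68e-05). For each of these genes the 2 groups were apart.

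Among the 15 rows with the largest differences toward the edge that held in all 6 wounds, these were joined by KRT77 (7.31), a keratin of the epidermis and sweat ducts, by KPRP, a keratinocyte proline-rich protein (6.98), and by the serpins SERPINA12 (6.85) and SERPINB7 (6.83), the latter an epidermal protease inhibitor. C5orf46 (7.92), CYP4A6 (7.28), TEDDM1A (7.11) and AADACL2 (7.09) completed the set. None of these had overlapping groups. Some had a lower median at the edge than on day 0: KRT77 was at 0.857 to 59.0 CPM (median 12.9) at the edge and 699.6 to 1779 CPM (median 1105) on day 0, and CYP4A6 at 0.654 to 119.6 CPM (median 5.44) and 108 to 291 CPM (median 209). SERPINB7 was at 77.8 to 279.8 CPM (median 164) at the edge and 107 to 372 CPM (median 233) on day 0. The edge ranges of CYP4A6 and SERPINB7 overlapped those of day 0, and that of KRT77 did not.

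Some centers held part of this program. IVL (involucrin), a precursor of the cornified envelope and named here after its values were seen, was at 311 CPM in the center of 1326J and 206 CPM in that of 1328C, against 2.76 to 36.2 CPM in the other 4, while the edges held 296 to 905 CPM (median 668), a log2 fold change of 4.84 ± 1.17 (edgeR adjusted p = 0.0149). The mean log2(1 + CPM) of the whole list was 2.04 to 5.22 in the centers, highest in 1326J (5.22) and 1328C (5.21), 8.53 to 9.65 at the edges and 9.03 to 10.05 in day 0 skin. Without wounds 1326J and 1328C the list still had 20 members higher at the edge, and over all alternative settings the number was 18 to 20.

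Enzymes that make the lipids of the epidermal barrier were higher at the edge too. Of 16 members tested, 15 were higher at the edge and 1 in the center, with a median log2 fold change of 4.04. ELOVL4, which elongates the very long fatty acids of ceramides, was at 93.1 to 194 CPM (median 154) at the edge and 3.44 to 14.9 CPM (median 9.15) in the center (log2 fold change 4.28 ± 0.18, edgeR adjusted p = 1.15e-05). ALOX12B and ALOXE3, lipoxygenases that act in turn on the linoleate of those ceramides, were at 70.8 to 139 CPM (median 89.2) against 1.03 to 9.74 CPM (median 2.22), a log2 fold change of 5.12 ± 0.46 and at 25.6 to 80.3 CPM (median 44.1) against 0.194 to 5.02 CPM (median 0.893), a log2 fold change of 5.36 ± 0.56. ABCA12, the transporter that loads lipid into lamellar granules, was at 69.0 to 107 CPM (median 98.3) against 0.188 to 18.1 CPM (median 2.22), a log2 fold change of 5.05 ± 0.84. None of these 4 genes overlapped between edge and center, and their edge medians stood near those of day 0 skin, for example 98.3 and 101 CPM for ABCA12. CYP4F22 (4.13), an omega-hydroxylase of ultra-long fatty acids, SDR9C7 (5.49), a dehydrogenase that acts after the lipoxygenases, and ABHD5 (1.83), a cofactor of lipid acyl transfer and lipolysis, were also higher at the edge. Between 12 and 15 members of the list were higher at the edge over all alternatives.

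Genes of cholesterol synthesis, a pathway controlled by the transcription factor SREBP2, were mostly higher at the edge. Of 23 members tested, 19 were higher there, 1 in the center and 3 did not pass, with a median log2 fold change of 1.37. HMGCS1, a synthase of the early pathway, was at 240.5 to 473 CPM (median 395) at the edge and 37.5 to 130.5 CPM (median 65.0) in the center (log2 fold change 2.50 ± 0.32, edgeR adjusted p = 0.000958). Enzymes of the later steps stood apart in the same way: CYP51A1 (1.93), MSMO1 (2.12), SC5D (1.79) and LSS (1.37). SREBF2, the gene of SREBP2 itself, was higher by 1.40 ± 0.14, at 269.7 to 375 CPM (median 307) against 81.5 to 169 CPM (median 136). INSIG1, which holds SREBP2 back in the endoplasmic reticulum, went the other way, at 16.4 to 72.0 CPM (median 49.1) against 44.7 to 102 CPM (median 76.7), a log2 fold change of -0.69 ± 0.19 (edgeR adjusted p = 0.0234). INSIG1 was called in 11 of 18 alternative settings, and neither without the replicate block nor with the wounds of an animal summed. Edge and center did not overlap for HMGCS1, CYP51A1, MSMO1, SC5D and LSS, and 17 to 20 members of the list were higher at the edge over all alternatives. The keratinocyte lists described here moved in the same direction, and their part in the difference was not tested.

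Basal keratinocyte genes differed less evenly from wound to wound. Of 15 tested members of the basal and hemidesmosome list, 9 were higher at the edge, 0 in the center and 6 did not pass, with a median log2 fold change of 3.05. KRT5, the basic keratin of the basal layer, was at 4812 to 6899.8 CPM (median 6229.6) at the edge. In the centers it was at 2044 CPM in 1326J, 1579 in 1328C and 506 in 1326C, against 37.5 to 47.0 in the other 3 (log2 fold change 5.04 ± 1.24, edgeR adjusted p = 0.0158). TP63, the transcription factor that keeps the basal state, was at 124 to 220.4 CPM (median 157) against 0.452 to 53.9 CPM (median 5.63), a log2 fold change of 4.90 ± 1.09 (edgeR adjusted p = 0.01). COL17A1, a transmembrane collagen of hemidesmosomes, was at 863 to 1315 CPM (median 1105) against 6.33 to 369 CPM (median 46.5), a log2 fold change of 4.79 ± 1.06 (edgeR adjusted p = 0.0101). These 3 genes did not overlap, whereas KRT15, a keratin of quiescent basal and hair follicle cells, did: its edge value of 4849 CPM in 1328C lay below the center value of 6255 in 1326J (log2 fold change 4.68 ± 1.20, edgeR adjusted p = 0.0188).

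The steadiest members of the list were the 2 chains of the integrin that anchors keratinocytes to the basement membrane. ITGA6 was at 245 to 650.5 CPM (median 378) at the edge and 71.5 to 244 CPM (median 126) in the center (log2 fold change 1.62 ± 0.23, edgeR adjusted p = 0.00153). ITGB4 was at 219.8 to 354 CPM (median 294) and 58.1 to 194 CPM (median 97.2), a log2 fold change of 1.48 ± 0.25 (edgeR adjusted p = 0.00311). Both chains are also made by other cells, and their groups did not overlap. LAMA3 and LAMB3, chains of the basement membrane protein laminin-332 that migrating keratinocytes lay down, did not pass and are named here after their values were seen. LAMA3 was at 84.8 to 188 CPM (median 134) against 1.48 to 136 CPM (median 13.5), a log2 fold change of 3.29 ± 1.10 (edgeR adjusted p = 0.0529), and LAMB3 differed by 3.13 ± 1.13 (edgeR adjusted p = 0.0681). In wound 1328C the center held more of both than the edge, for LAMB3 214 against 89.8 CPM. Without wounds 1326J and 1328C, 12 of the 15 members were higher at the edge. The number was 13 with DESeq2, 5 without wound 1326C or wound 1327J, 12 without wound 1328C, 3 without animal 1327 and 2 with the wounds of an animal summed.

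**Figure D2:**
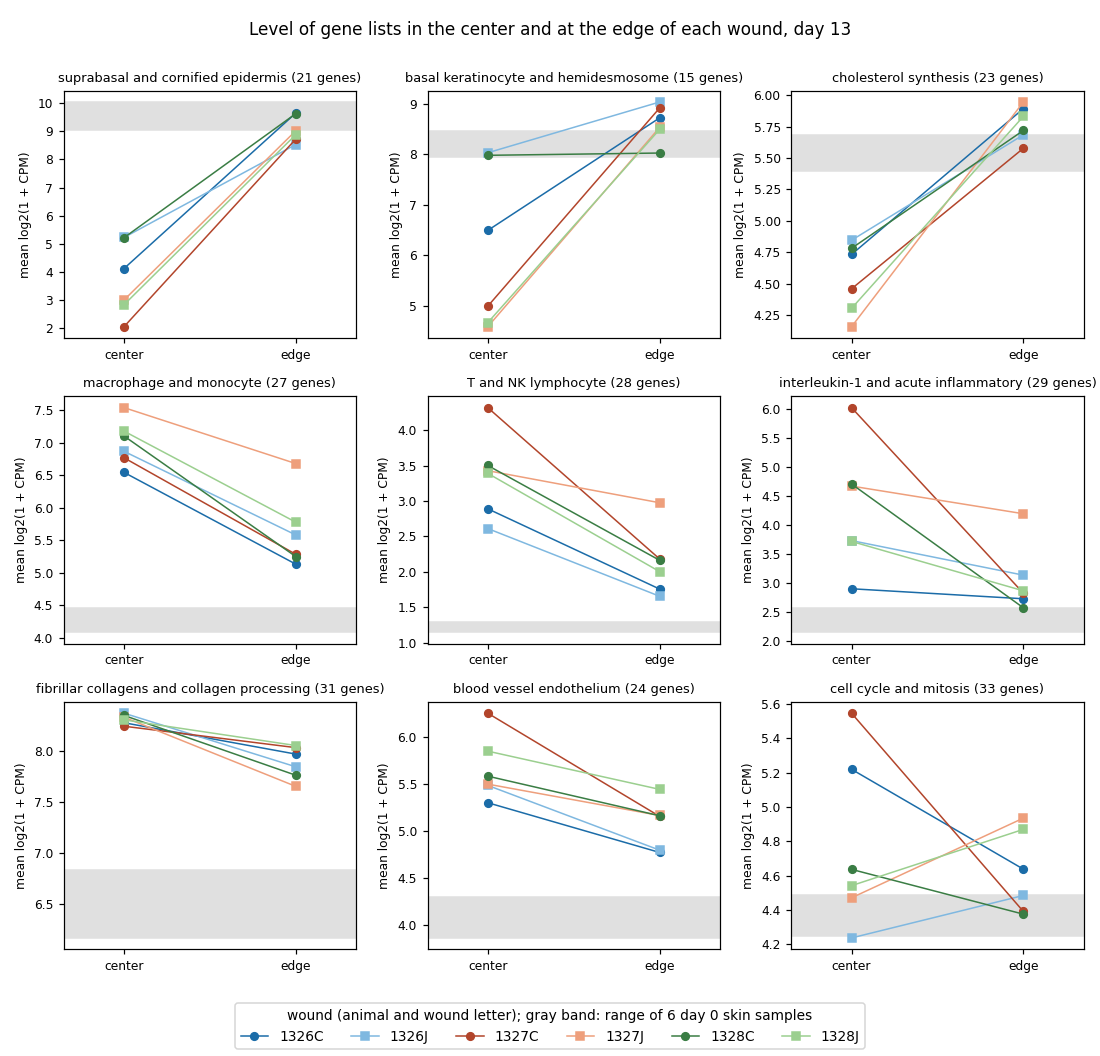
Mean log2(1 + CPM) of 9 gene lists in the center (left) and at the edge (right) of each wound, joined by a line per wound, with the range of 6 day 0 skin samples in gray. The suprabasal list lies at 2.04 to 5.22 in the centers and 8.53 to 9.65 at the edges, while the basal list in wound 1328C is level (7.98 and 8.02); the macrophage and lymphocyte lists lie lower at the edge in each wound.

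Keratinocytes at a wound switch on keratins and alarm proteins that resting epidermis barely holds. Of 25 genes on this list 14 were matched to a gene of the table and 10 could be tested, of which 7 were higher at the edge and 0 in the center (median log2 fold change 3.40). KRT6C, a keratin of activated epidermis, was at 4693 to 29710.2 CPM (median 17048) at the edge and 69.2 to 7231 CPM (median 737) in the center, and at 478 to 995 CPM (median 899) in day 0 skin (log2 fold change 5.00 ± 1.34, edgeR adjusted p = 0.023). KRT6B, a close copy among which reads may be split, was at 756 to 2267 CPM (median 1483) against 5.57 to 586 CPM (median 56.8), a log2 fold change of 5.16 ± 1.36 (edgeR adjusted p = 0.0212). KRT6C overlapped between the groups, with 4693 CPM at the edge of 1328C and 7231 in the center of 1326J, and KRT6B did not. IL36G, an interleukin-1 family cytokine of keratinocytes, was at 7.24 to 36.3 CPM (median 25.9) against 0 to 0.709 CPM (median 0.159) with no overlap (log2 fold change 6.45 ± 0.58, edgeR adjusted p = 0.000249). SERPINB3, a protease inhibitor of stressed epithelium found on 2 rows, was at 98.6 to 479.9 CPM (median 206) against 0.877 to 103 CPM (median 6.08), a log2 fold change of 4.92 ± 1.11 (edgeR adjusted p = 0.0106).

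S100A8, S100A9 and S100A12, calcium-binding proteins of both neutrophils and activated keratinocytes, went with the edge in 5 of 6 wounds. S100A8 was at 359 to 3454 CPM (median 1031) against 43.8 to 570.1 CPM (median 93.0), a log2 fold change of 3.19 ± 0.73 (edgeR adjusted p = 0.012), while day 0 skin held 0.631 to 3.19 CPM (median 1.89). The exception was wound 1328C, with 453 CPM at the edge and 570.1 in the center. S100A9 differed by 3.60 ± 0.81 (edgeR adjusted p = 0.0106) and S100A12 by 3.19 ± 0.74 (edgeR adjusted p = 0.0124). The count of 7 for the whole list changed with the animal left out. It was 2 without animal 1326 or without animal 1327, 7 without animal 1328 and 1 with the wounds of an animal summed. It was 9 without wounds 1326J and 1328C.

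Hair follicle structure genes were at or near 0 in both locations. Of 28 matched members 7 passed the filter on low counts. KRT71, a keratin of the inner root sheath, had a count in 1 of the 12 samples (0.323 CPM at the edge of 1327J) and 10.05 to 5729 CPM (median 4257) in day 0 skin, and KRT27, another, was at 0.0986 to 0.595 CPM (median 0.173) and 0 to 2.58 CPM (median 0.121) against 6.57 to 6357 CPM (median 4729). The 4 members higher at the edge were transcription factors, not structural genes of the hair. DLX3, a factor of epidermal and follicle differentiation, was at 30.3 to 56.8 CPM (median 43.1) against 0 to 4.99 CPM (median 1.04), a log2 fold change of 5.34 ± 0.63 (edgeR adjusted p = 0.000658). SOX9 (4.85), FOXN1 (4.68) and HOXC13 (3.54) stood apart likewise, and MSX2, a homeobox factor also found in mesenchyme, was higher in the center (-0.57, edgeR adjusted p = 0.0402). Of 8 tested gland genes, FA2H (4.48), which hydroxylates fatty acids, the water channel AQP5 (4.18) and KRT7 (1.38) were higher at the edge and SOAT1, a cholesterol acyltransferase that macrophages share, in the center (-0.85). The 3 gland calls at the edge became 5 without wound 1327C or without animal 1327 and 6 with no filter or with the wounds of an animal summed. They became 2 without the replicate block, wound 1326C, wound 1328C, animal 1326, animal 1328 or wounds 1326J and 1328C. KRT7 was not called without wound 1326C or wound 1328C, and MSX2 not without wound 1327C, 1327J, 1328C or 1328J. Of 18 alternative settings, KRT7 was called in 11 and MSX2 in 8.

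Toward the center the largest differences were smaller than those toward the edge and fell on acute-phase, myeloid and lymphoid genes. SAA2, a serum amyloid A of the acute phase response (its copies may share reads), was at 3.53 to 268 CPM (median 8.66) at the edge and 58.2 to 1892 CPM (median 471) in the center, against at most 0.473 CPM in day 0 skin (log2 fold change -4.71 ± 0.79, edgeR adjusted p = 0.00286). All 6 wounds held more in the center, and the edge of 1327J, at 268 CPM, overlapped the centers while no other edge exceeded 10.2 CPM. The other genes of the 15 with the largest center-directed differences in all 6 wounds were mostly low. IDO1, which degrades tryptophan, was at 0.136 to 7.44 CPM (median 1.06) against 3.18 to 95.9 CPM (median 10.2), a log2 fold change of -3.17 ± 0.79 (edgeR adjusted p = 0.0173). CSF3, the granulocyte growth factor, was at 0.171 to 3.62 CPM (median 0.573) against 0.809 to 87.0 CPM (median 4.66), a log2 fold change of -3.16 ± 0.88 (edgeR adjusted p = 0.0261). CCL3, a macrophage chemokine given on 3 rows, was at 0.476 to 11.1 CPM (median 0.696) against 1.21 to 42.2 CPM (median 16.3), a log2 fold change of -2.98 ± 0.66 (edgeR adjusted p = 0.0103). IDO1 and CSF3 were highest in the center of 1327C, at 95.9 and 87.0 CPM.

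Further members of this set were IL27 (-3.50), a cytokine of antigen-presenting cells, TNFSF11 (-2.74), the ligand that drives osteoclast formation, and PLA2G2D (-2.95), a secreted phospholipase. SPHKAP (-4.67), LILRA6 (-3.05), UPB1 (-2.99), CEACAM4 (-2.93), C1QL2 (-2.89) and DYDC1 (-2.76) belonged to it too. LILRA6 stands on 6 rows of the table. MLANA, known as a melanocyte antigen, was at 0 to 2.39 CPM (median 0.550) against 3.57 to 15.9 CPM (median 6.11), a log2 fold change of -3.57 ± 0.72 (edgeR adjusted p = 0.00645) and at 0 in all 6 day 0 samples. TYR, the enzyme of pigment synthesis, was at 0 in all 12 samples, and PMEL, a melanosome protein, was at 0.271 to 0.776 CPM (median 0.413) and 0.249 to 0.886 CPM (median 0.425), so the defining pigment cell markers beside MLANA were at or near 0 in both locations. Of 7 tested melanocyte genes 2 were higher in the center, MLANA and KIT, and 0 at the edge.

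Complement genes lay toward the center. Of 20 tested, 12 were higher in the center, 1 at the edge and 7 did not pass, with a median log2 fold change of -0.84. C3, the component on which all activation routes meet (given on 2 rows), was at 64.3 to 277 CPM (median 83.4) at the edge and 417 to 1474 CPM (median 740.1) in the center with no overlap (log2 fold change -2.72 ± 0.36, edgeR adjusted p = 0.00104), and day 0 skin held 16.3 to 39.2 CPM (median 23.7). CLU (clusterin), an inhibitor of the terminal complex, was at 69.6 to 399 CPM (median 151) against 456 to 926 CPM (median 569), a log2 fold change of -1.95 ± 0.23 (edgeR adjusted p = 0.000605). The receptors C3AR1 (-1.12) and C5AR1 (-1.49), the protease genes C1R (-1.23) and C2 (-1.16) and the lectin FCN1 (-2.07) were higher in the center too. CFI, a protease that inactivates C3b, was the exception at 2.46 to 8.34 CPM (median 4.11) against 1.16 to 2.60 CPM (median 2.13), a log2 fold change of 1.34 ± 0.24 (edgeR adjusted p = 0.00379). Over the alternatives 8 to 12 members were higher in the center.

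Of the lists described here, the macrophage list had the largest share of members higher in the center. All 27 members of the list were tested and 25 were higher in the center, 0 at the edge, with a median log2 fold change of -1.35. CD163, a scavenger receptor of hemoglobin complexes, was at 44.1 to 252 CPM (median 58.8) at the edge and 180.5 to 808 CPM (median 310.3) in the center (log2 fold change -1.88 ± 0.18, edgeR adjusted p = 0.000291). MRC1, the mannose receptor of tissue macrophages, was at 39.7 to 160.3 CPM (median 51.4) against 109 to 391 CPM (median 149.9), a log2 fold change of -1.35 ± 0.11 (edgeR adjusted p = 0.000164). In all 6 wounds the center exceeded the edge for these genes. The groups overlapped nevertheless, since wound 1327J was high on both sides: its edge held 252 CPM of CD163, more than the centers of 1326C, 1326J and 1327C. CD68, a lysosomal protein of macrophages on 2 rows, was at 23.6 to 134 CPM (median 39.3) against 75.9 to 249 CPM (median 162), a log2 fold change of -1.50 ± 0.27 (edgeR adjusted p = 0.00418).

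The signalling adaptors FCER1G (-1.68 ± 0.14) and TYROBP (-1.37 ± 0.12), shared by macrophages, neutrophils and natural killer cells, and the scavenger receptors MARCO (-2.09 ± 0.21) and STAB1 (-0.83 ± 0.08) were higher in the center of each wound. Both locations stood above intact skin: the list's mean log2(1 + CPM) was 4.08 to 4.46 on day 0, 5.13 to 6.68 at the edge and 6.54 to 7.54 in the center. Under the alternatives 20 to 26 members were higher in the center, with 20 in the fit without animal 1326 and 21 without wounds 1326J and 1328C.

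T and NK lymphocyte genes were the list with the lowest median, -1.72. Of 26 members tested, 21 were higher in the center, 0 at the edge and 5 did not pass. CD3E, a chain of the T cell receptor complex, was at 1.88 to 12.7 CPM (median 5.12) at the edge and 8.48 to 89.8 CPM (median 20.6) in the center (log2 fold change -2.0 ± 0.21, edgeR adjusted p = 0.000425). CD3D, its partner, was at 1.94 to 12.6 CPM (median 7.02) against 12.2 to 85.3 CPM (median 24.8), a log2 fold change of -1.96 ± 0.29 (edgeR adjusted p = 0.00162). The center of 1327C, with 89.8 CPM of CD3E, held over 3 times as much as any other sample, and the center exceeded the edge in all 6 wounds. NKG7, of cytotoxic granules, was at 11.1 to 56.7 CPM (median 14.0) against 40.8 to 114 CPM (median 59.9), a log2 fold change of -1.72 ± 0.16 (edgeR adjusted p = 0.000249). TRDC, the constant region of the gamma-delta receptor that pig T cells often carry, was at 7.54 to 20.6 CPM (median 10.2) against 20.5 to 133 CPM (median 37.4), a log2 fold change of -1.81 ± 0.24 (edgeR adjusted p = 0.000981). The T cell surface proteins CD5 (-2.02) and CD2 (-1.73) and the kinase ZAP70 (-1.88) differed alike. FOXP3, the factor of regulatory T cells, was named after its values were seen: it stood at 0.592 to 2.46 CPM (median 1.28) against 0.686 to 4.00 CPM (median 2.15) and did not pass (log2 fold change -0.59 ± 0.35, edgeR adjusted p = 0.241). Without 1327C, the wound of that high center, 19 members of the list were higher in the center.

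Antigen-presenting cell genes followed, with 6 of 10 tested members higher in the center and 0 at the edge. IRF8, a factor of dendritic and myeloid cells, was at 12.7 to 28.9 CPM (median 18.4) against 36.0 to 70.4 CPM (median 57.1), a log2 fold change of -1.38 ± 0.16 (edgeR adjusted p = 0.000603). CCR7, the receptor that guides cells to lymph nodes, was at 2.04 to 14.7 CPM (median 3.18) against 10.7 to 109 CPM (median 18.3), a log2 fold change of -2.50 ± 0.45 (edgeR adjusted p = 0.00388). LAMP3, of mature dendritic cells, was at 3.03 to 12.1 CPM (median 3.84) against 8.29 to 38.4 CPM (median 12.8), a log2 fold change of -1.49 ± 0.26 (edgeR adjusted p = 0.00352). IRF8 did not overlap between the groups, whereas CCR7 and LAMP3 did through the edge of 1327J (14.7 and 12.1 CPM), and both were highest in the center of 1327C. The class II chain chaperone CD74 (-0.68) and its regulator CIITA (-0.69) were higher in the center by less. CD207, the langerin of Langerhans cells, was too low to test, at 0.129 to 1.68 CPM (median 1.41) and 0.187 to 1.36 CPM (median 0.403).

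Of 16 tested B and plasma cell genes 3 were higher in the center, 1 at the edge and 12 did not pass. MS4A1, the B cell surface protein CD20, was at 0.453 to 1.87 CPM (median 0.821) against 0.369 to 2.60 CPM (median 2.09), a log2 fold change of -0.76 ± 0.38 (edgeR adjusted p = 0.168). CD79A, of the B cell receptor, was at 0.632 to 10.9 CPM (median 1.64) against 1.57 to 36.6 CPM (median 2.26), a log2 fold change of -0.80 ± 0.31 (edgeR adjusted p = 0.0797). CD79A was high in a single wound, 1326C, on both sides (10.9 and 36.6 CPM). The 3 members higher in the center were BLK (-2.41), a kinase that gamma-delta T cells also use, IRF4 (-1.54), a factor of activated lymphocytes and plasma cells, and BANK1 (-0.80), a B cell scaffold protein. CXCR5, a chemokine receptor of follicular B cells, was higher at the edge (1.79). The 3 center calls became 7 with limma voom, 6 with library size in place of TMM, 5 with DESeq2, without wound 1327C or without animal 1327, and 1 without animal 1326 or animal 1328. CD79A passed in these fits with 5 or more calls, and CXCR5 was not called without wound 1326J, wound 1328J or wounds 1326J and 1328C together, without animal 1326 or animal 1328, or without the replicate block.

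The interleukin-1 and acute inflammatory list leaned to the center but varied strongly between wounds. Of 28 tested members 10 were higher in the center, 0 at the edge and 18 did not pass, with a median log2 fold change of -1.29. IL1B, the main inflammatory cytokine of the list, was at 0.394 to 12.03 CPM (median 0.643) at the edge and 0.520 to 184 CPM (median 16.9) in the center. It was higher in the center in 5 of 6 wounds, with 184 CPM in 1327C, 45.4 in 1327J and 29.8 in 1328C, but in 1326C the center held 0.520 CPM and the edge 0.543. With the wound as a block it missed the threshold at a log2 fold change of -3.23 ± 1.07 (edgeR adjusted p = 0.0504), and without the replicate block it passed at -3.93 (edgeR adjusted p = 0.0371). IL1B was called in 8 of 18 alternative settings. Fits that kept the block and called it included DESeq2 (-2.88, DESeq2 adjusted p = 0.00981), limma voom (-3.83, limma adjusted p = 0.0151) and no filter (-3.23, edgeR adjusted p = 0.0363). IL1A, the related cytokine that keratinocytes store, was at 13.0 to 43.2 CPM (median 22.0) against 11.0 to 150.4 CPM (median 29.0), a log2 fold change of -0.54 ± 0.53 (edgeR adjusted p = 0.483). IL1RN, the receptor antagonist, was at 22.9 to 100.1 CPM (median 73.9) against 5.08 to 197 CPM (median 45.3), a log2 fold change of 0.70 ± 0.59 (edgeR adjusted p = 0.41).

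Named members that passed were CCL2, PPBP, IL11, NLRP3 and TNFAIP3, with CCL3 given above. CCL2, which attracts monocytes, was at 11.0 to 38.7 CPM (median 15.3) at the edge and 26.7 to 126 CPM (median 44.3) in the center, higher there in all 6 wounds (log2 fold change -1.27 ± 0.15, edgeR adjusted p = 0.000667). PPBP, a platelet and monocyte chemokine, was at 0 to 1.75 CPM (median 0.188) against 0 to 10.7 CPM (median 3.75), a log2 fold change of -3.54 ± 0.37 (edgeR adjusted p = 0.000655). IL11, a cytokine of stromal cells, was at 1.43 to 12.7 CPM (median 7.26) against 4.39 to 126 CPM (median 43.4), a log2 fold change of -2.44 ± 0.67 (edgeR adjusted p = 0.0247). NLRP3, the inflammasome sensor, was at 3.30 to 13.4 CPM (median 5.93) against 9.58 to 31.8 CPM (median 14.7), a log2 fold change of -1.31 ± 0.30 (edgeR adjusted p = 0.0119). NLRP3 and IL11 were higher in the center of all 6 wounds, but the center of 1326C, at 4.39 CPM of IL11 and with no count of PPBP, lay among the edges. TNFAIP3, which dampens NF-kB signalling, differed by -1.25 ± 0.33 (edgeR adjusted p = 0.0208). CXCL8, the main neutrophil chemokine, did not pass (log2 fold change -3.27 ± 1.09, edgeR adjusted p = 0.052) and is named after its values were seen, since it was spread over 3.94 to 216 CPM (median 5.89) at the edge and 13.9 to 795 CPM (median 223) in the center. The count of 10 was 5 without wound 1328C or without animal 1327 and 18 with DESeq2, and it was 7 without wounds 1326J and 1328C.

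Neutrophil genes were called in both directions. Of 17 tested members 10 were higher in the center and 4 at the edge. The 4 were LTF (lactoferrin), also a product of glands, at 0.799 to 47.1 CPM (median 10.7) against 0.0578 to 1.11 CPM (median 0.444), a log2 fold change of 4.78 ± 0.56 (edgeR adjusted p = 0.000612), and S100A8, S100A9 and S100A12, which keratinocytes share. CSF3R, the granulocyte growth factor receptor, was at 6.11 to 83.7 CPM (median 16.8) against 22.2 to 268 CPM (median 96.9), a log2 fold change of -2.16 ± 0.42 (edgeR adjusted p = 0.00551). The oxidase subunits NCF1 (-2.02) and NCF4 (-1.25), the receptor CXCR4 (-2.04) and the Fc receptor FCGR3A (-1.49), all of which macrophages or lymphocytes may share, were higher in the center as well. CXCR2, the chemokine receptor of neutrophils, stood at 17.1 to 26.7 CPM (median 23.4) against 5.66 to 127 CPM (median 21.9), a log2 fold change of 0.04 ± 0.52 (edgeR adjusted p = 0.96). The S100 genes were not called in the fits without animal 1326 and with the wounds of an animal summed, nor S100A8 and S100A9 without animal 1327, and the 10 center calls became 6 without wound 1326J or wound 1328J.

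Matrix-degrading enzymes and their inhibitors were higher in the center where they passed: 10 of 22 tested members, with 1 higher at the edge and a median of -0.61. MMP2, a gelatinase of stromal cells, was at 3016 to 4304 CPM (median 3599) at the edge and 6051 to 8125 CPM (median 6992) in the center (log2 fold change -0.83 ± 0.17, edgeR adjusted p = 0.00675). MMP14, the membrane protease that activates it, was at 1298 to 1762 CPM (median 1425) against 2345 to 3114 CPM (median 2858), a log2 fold change of -0.81 ± 0.13 (edgeR adjusted p = 0.00208). Neither overlapped between the groups, and both stood above day 0 skin at either location. MMP1, a collagenase that keratinocytes and fibroblasts secrete, was at 7.15 to 296 CPM (median 30.1) against 122 to 1956 CPM (median 384), a log2 fold change of -3.54 ± 1.03 (edgeR adjusted p = 0.0305), highest in the center of 1327C. MMP19 (-1.11) and MMP25 (-1.60), metalloproteinases found on leukocytes among other cells, the inhibitor TIMP1 (-1.27), the plasminogen activator PLAT (-0.57) and SERPINE2 (-1.51), which inhibits thrombin and plasminogen activators, differed in the same direction. MMP9, a gelatinase of leukocytes and named after its values were seen, was at 77.6 to 2678 CPM (median 291) against 1040.1 to 3709 CPM (median 2583) and higher in the center in all 6 wounds (log2 fold change -2.19 ± 0.60, edgeR adjusted p = 0.025). MMP27 went to the edge, at 2.17 to 20.9 CPM (median 9.87) against 0.258 to 5.70 CPM (median 1.99), a log2 fold change of 2.09 ± 0.53 (edgeR adjusted p = 0.0178). Over the alternatives 5 to 14 members were higher in the center, the lowest without animal 1326.

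The chains of type I and type III collagen did not pass the test. COL1A1, the main chain of type I collagen with 4.47% ± 1.07 of a library's counts (SD, n = 12), was at 26665 to 55447 CPM (median 41625) at the edge and 29434 to 62836 CPM (median 49331) in the center (log2 fold change -0.16 ± 0.28, edgeR adjusted p = 0.7). COL1A2 differed by -0.12 ± 0.26 (edgeR adjusted p = 0.76), COL3A1, of type III collagen, by -0.21 ± 0.26 (edgeR adjusted p = 0.581) and SPARC, a collagen-binding matricellular protein, by -0.16 ± 0.24 (edgeR adjusted p = 0.67). Their groups overlapped. COL1A1, COL3A1, COL1A2, SPARC and KRT6C held the 5 largest mean shares, 4.47%, 4.10%, 2.69%, 1.25% and 0.973% of the counts, which are shares of reads and not corrected for gene length. KRT6C took 1.74% ± 0.84 of the edge counts and 0.206% ± 0.286 of the center counts (SD, n = 6 each).

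Of the 31 members of the collagen list, which adds the enzymes that modify and cross-link the chains, 11 were higher in the center, 1 at the edge and 19 did not pass. P4HA3, a prolyl 4-hydroxylase subunit, was at 41.4 to 82.7 CPM (median 46.6) against 94.9 to 127 CPM (median 116), a log2 fold change of -1.07 ± 0.16 (edgeR adjusted p = 0.00166), with no overlap. PCOLCE2, an enhancer of procollagen cleavage (-1.05), BMP1, the cleaving protease (-0.62), PLOD3, a lysyl hydroxylase (-0.71), LOXL3, a lysyl oxidase (-0.89), and COL5A3 (-1.0), a chain that regulates fibril assembly, were also higher in the center. P3H1, a prolyl 3-hydroxylase of collagen given on 2 rows, was the exception, at 223 to 609 CPM (median 357) at the edge and 51.5 to 123 CPM (median 85.3) in the center with no overlap (log2 fold change 2.19 ± 0.24, edgeR adjusted p = 0.000463). The number higher in the center was 6 without animal 1326 or without wounds 1326J and 1328C, and 18 with library size in place of TMM.

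Among provisional and matricellular matrix genes fibronectin and periostin pointed in opposite directions. FN1, the fibronectin that fills the early wound and supports migration, was at 1316 to 3978 CPM (median 2697) at the edge and 5916 to 8933 CPM (median 6386) in the center, with 379 to 744 CPM (median 445) in day 0 skin (log2 fold change -1.46 ± 0.21, edgeR adjusted p = 0.0015). POSTN (periostin), a collagen-associated protein of remodelling dermis, was at 1631 to 5659 CPM (median 2539.6) against 619 to 1602 CPM (median 1213), with 2736 to 6257 CPM (median 3656) on day 0 (log2 fold change 1.45 ± 0.24, edgeR adjusted p = 0.00271). Neither gene overlapped between edge and center. TNC (tenascin-C), of the early granulation tissue, was at 1109.7 to 2412 CPM (median 1622) against 1498 to 4077 CPM (median 2604) and did not pass (log2 fold change -0.53 ± 0.25, edgeR adjusted p = 0.146). Of 23 tested members 9 were higher in the center, among them CCN4 (-0.96), ASPN (-0.94), BGN (-0.62) and FAP (-0.39), and 2 at the edge, POSTN and HAS1 (1.74), a hyaluronan synthase. The 9 became 3 without animal 1328, 4 without animal 1326, wound 1327J or wounds 1326J and 1328C, and 11 with DESeq2.

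Mature dermis and contractile genes were mostly not past the threshold. ELN (elastin), of elastic fibers, was at 45.2 to 477 CPM (median 186) against 34.6 to 130.3 CPM (median 86.1), a log2 fold change of 1.12 ± 0.39 (edgeR adjusted p = 0.0599). FBN1 (fibrillin-1), their scaffold, was at 455 to 580.1 CPM (median 495) against 484 to 776 CPM (median 707), a log2 fold change of -0.31 ± 0.11 (edgeR adjusted p = 0.0591). ELN was highest at the edges of 1326C, 1328C and 1328J, and at the edge of 1326J it was lower than in the center. Of 32 tested dermis genes 5 were higher in the center, CFD (-1.84), COL15A1 (-0.59), MFAP5 (-0.76), DCN (-0.50) and LUM (-0.48), and 1 at the edge, EFEMP1, a fibulin, at 15.8 to 91.0 CPM (median 34.6) against 1.55 to 39.3 CPM (median 7.85), a log2 fold change of 2.29 ± 0.44 (edgeR adjusted p = 0.00521). CFD is a complement protease made by fat and leukocytes as well. Of 18 genes of myofibroblasts and smooth muscle 5 were higher in the center and 1, ACTG2 (0.87), at the edge. ACTA2, the smooth muscle actin of myofibroblasts, was at 184 to 487 CPM (median 254) against 285 to 430.3 CPM (median 378), a log2 fold change of -0.34 ± 0.19 (edgeR adjusted p = 0.225). TPM2, a tropomyosin, was at 98.4 to 230.1 CPM (median 141) against 256 to 423 CPM (median 337), a log2 fold change of -1.12 ± 0.14 (edgeR adjusted p = 0.000819). MYL9, a myosin light chain, was at 76.5 to 141 CPM (median 102) against 152 to 200.2 CPM (median 177), a log2 fold change of -0.70 ± 0.11 (edgeR adjusted p = 0.00196). The 5 dermis genes higher in the center became 2 without wound 1326C, 1326J or 1328J or without animal 1326, and 13 with library size in place of TMM. The 5 contractile genes became 3 without animal 1326 or without wounds 1326J and 1328C, and 8 with DESeq2.

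Vessel genes lay toward the center by small amounts. Of 24 endothelial members tested, 15 were higher in the center, 1 at the edge and 8 did not pass, with a median log2 fold change of -0.58. PLVAP, of the endothelial diaphragm, was at 115 to 220.0 CPM (median 162) at the edge and 199.9 to 507 CPM (median 311) in the center (log2 fold change -0.85 ± 0.10, edgeR adjusted p = 0.000554). ENG (endoglin), a co-receptor of TGF-beta, was at 121 to 193 CPM (median 136) against 202 to 311 CPM (median 267), a log2 fold change of -0.78 ± 0.10 (edgeR adjusted p = 0.000755). CDH5, the cadherin of endothelial junctions, was at 94.6 to 161 CPM (median 127) against 161 to 288 CPM (median 169), a log2 fold change of -0.55 ± 0.10 (edgeR adjusted p = 0.00341). PECAM1, the adhesion protein CD31, was at 209.8 to 391 CPM (median 277) against 382 to 712 CPM (median 463), a log2 fold change of -0.69 ± 0.13 (edgeR adjusted p = 0.0041). All 4 genes were higher in the center of each of the 6 wounds, and ENG did not overlap between the groups. TIE1 (-0.77), ROBO4 (-0.65) and APLNR (-0.60), endothelial receptors, were close to these. VWF, on 2 rows and barely counted at 1.01 to 2.51 CPM (median 1.47) against 0.0646 to 1.12 CPM (median 0.542), was higher at the edge (log2 fold change 1.65 ± 0.44, edgeR adjusted p = 0.0211). Compared with intact skin both locations were high: the list's mean log2(1 + CPM) was 3.86 to 4.30 on day 0, 4.77 to 5.45 at the edge and 5.30 to 6.26 in the center. The count of 15 was 7 without animal 1326 and 11 without wounds 1326J and 1328C.

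Of 9 tested pericyte genes 4 were higher in the center and 1 at the edge. PDGFRB, the receptor that recruits pericytes and marks fibroblasts too, was at 325 to 485 CPM (median 358) against 621 to 995 CPM (median 705) with no overlap (log2 fold change -0.88 ± 0.12, edgeR adjusted p = 0.0011). RGS5 (-0.40), MCAM (-0.64) and ABCC9 (-0.66) were the other members higher in the center, and NOTCH3, a receptor of mural cells that epidermis also uses, was higher at the edge (0.58). Of 8 lymphatic genes 2 were higher in the center and 0 at the edge. LYVE1, a hyaluronan receptor that macrophages share, was at 12.9 to 22.9 CPM (median 16.7) against 20.4 to 51.7 CPM (median 28.7), a log2 fold change of -0.83 ± 0.11 (edgeR adjusted p = 0.000939). PDPN (podoplanin), also of fibroblasts and keratinocytes, was at 55.1 to 176 CPM (median 67.0) against 113 to 332 CPM (median 229), a log2 fold change of -1.28 ± 0.16 (edgeR adjusted p = 0.00092). PROX1, the factor that defines lymphatic endothelium, stood at 1.61 to 4.57 CPM (median 2.84) against 1.29 to 4.26 CPM (median 3.27), a log2 fold change of 0.07 ± 0.28 (edgeR adjusted p = 0.882). The 4 pericyte genes became 2 without wounds 1326J and 1328C, without the replicate block and in 5 other settings.

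WNT genes were called in both directions, 12 of 40 tested at the edge and 7 in the center. At the edge were ligands known from epidermis: WNT16 at 15.2 to 34.3 CPM (median 23.5) against 0.501 to 3.37 CPM (median 0.898), a log2 fold change of 4.25 ± 0.38 (edgeR adjusted p = 0.000245). WNT3 was at 29.8 to 57.3 CPM (median 38.8) against 0.554 to 6.49 CPM (median 2.20), a log2 fold change of 4.14 ± 0.45 (edgeR adjusted p = 0.000443). WNT9A (1.34) and WNT11 (2.65) and the ubiquitin ligases RNF43 (2.90) and ZNRF3 (1.03), which remove WNT receptors from the surface, were also higher there. In the center were ligands and modulators known from mesenchyme: WNT2 at 4.59 to 12.2 CPM (median 7.21) against 15.8 to 34.8 CPM (median 21.4), a log2 fold change of -1.54 ± 0.16 (edgeR adjusted p = 0.00035). WNT5A, of the non-canonical branch, was at 40.4 to 92.6 CPM (median 68.9) against 91.5 to 487 CPM (median 221), a log2 fold change of -1.53 ± 0.28 (edgeR adjusted p = 0.00396). RSPO1, which protects the receptors from those ligases, was at 0.171 to 3.80 CPM (median 1.46) against 3.51 to 15.3 CPM (median 8.46), a log2 fold change of -2.40 ± 0.44 (edgeR adjusted p = 0.00415). DKK3 (-0.77), SFRP1 (-0.94) and the transcription factor LEF1 (-0.75) were higher in the center too. WNT16, WNT3 and WNT2 did not overlap between the groups.

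In the TGF-beta and activin list 7 of 26 tested members were higher in the center, 3 at the edge and 16 did not pass. TGFB1, the growth factor itself, was at 86.9 to 212 CPM (median 126) against 162 to 321 CPM (median 211), a log2 fold change of -0.68 ± 0.12 (edgeR adjusted p = 0.00378). TGFB2 was at 27.8 to 45.1 CPM (median 39.3) against 51.7 to 106 CPM (median 60.5), a log2 fold change of -0.78 ± 0.17 (edgeR adjusted p = 0.00904), whereas TGFB3 did not pass (log2 fold change -0.41 ± 0.16, edgeR adjusted p = 0.0927). INHBA, the activin A subunit of wound stroma and keratinocytes, was at 27.4 to 83.5 CPM (median 47.0) against 89.8 to 198 CPM (median 123), a log2 fold change of -1.32 ± 0.28 (edgeR adjusted p = 0.00799), with at most 3.84 CPM in day 0 skin. TGFB2 and INHBA did not overlap between the groups, and TGFB1 did through the edge of 1327J. The receptor TGFBR2 (-0.56), the subunit INHBB (-0.61) and ID2 (-1.06), a target of the pathway, were the other center genes named. The bone morphogenetic protein genes BMP7 (4.62 ± 0.64) and BMP2 (1.38 ± 0.22) and their target ID1 (1.70 ± 0.18) were higher at the edge. BMP7 was at 47.6 to 87.6 CPM (median 60.0) against 0.185 to 16.1 CPM (median 2.87). Without animal 1326 the 7 center calls became 4.

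Hypoxia and glycolysis genes were called at the edge for 9 of 22 members and in the center for 3. BNIP3, a mitochondrial protein induced by low oxygen and given on 2 rows, was at 208 to 435 CPM (median 332) at the edge and 56.6 to 142 CPM (median 81.0) in the center (log2 fold change 2.02 ± 0.19, edgeR adjusted p = 0.000249). EGLN3, an oxygen-sensing hydroxylase, was at 71.4 to 200.4 CPM (median 117) against 5.60 to 51.8 CPM (median 18.8), a log2 fold change of 2.75 ± 0.38 (edgeR adjusted p = 0.00125). HK2, the hexokinase, was at 85.3 to 266 CPM (median 168) against 17.8 to 67.6 CPM (median 46.9), a log2 fold change of 2.02 ± 0.31 (edgeR adjusted p = 0.00184). None of these 3 genes overlapped between the groups. VEGFA, the vessel growth factor, differed by 0.93 ± 0.21 (edgeR adjusted p = 0.0107). HIF1A, which encodes the oxygen-regulated factor, was at 151 to 253 CPM (median 189) against 209.6 to 663 CPM (median 251), a log2 fold change of -0.45 ± 0.17 (edgeR adjusted p = 0.0795). The 3 center genes were SLC2A3 (-1.45), a glucose carrier of leukocytes, SLC16A3 (-1.31), a lactate carrier, and ENO2 (-0.87), an enolase. Beside these, 6 of 38 mitochondrial respiratory chain genes were higher at the edge and 0 in the center, the steadiest being UQCRC2 of complex III at 72.4 to 92.6 CPM (median 85.6) against 61.1 to 76.2 CPM (median 71.6), a log2 fold change of 0.36 ± 0.07 (edgeR adjusted p = 0.00648). The 6 respiratory chain calls were not above the 18.0% of all genes that were higher at the edge. They were 0 in each fit without 1 animal and 1 without wounds 1326J and 1328C, and library size without TMM gave 1 at the edge and 2 in the center. The 9 hypoxia calls became 5 without animal 1326.

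Few interferon-stimulated genes passed the test. Of 25 tested 3 were higher in the center, 1 at the edge and 21 did not pass. ISG15, a ubiquitin-like product of interferon signalling, was at 15.6 to 247 CPM (median 111) against 13.6 to 73.1 CPM (median 30.4), a log2 fold change of 1.84 ± 0.73 (edgeR adjusted p = 0.091). IFI6 was at 54.5 to 199.6 CPM (median 152) against 50.2 to 152 CPM (median 125), a log2 fold change of 0.49 ± 0.37 (edgeR adjusted p = 0.354). OASL, a member of the oligoadenylate synthetase family, was the gene at the edge, at 3.57 to 34.8 CPM (median 15.8) against 0.177 to 0.809 CPM (median 0.371), a log2 fold change of 5.32 ± 0.50 (edgeR adjusted p = 0.00027). OASL did not overlap between the groups, and ISG15 was higher at the edge in every wound but 1327C. BST2 (tetherin), which holds virus at the membrane, was higher in the center (log2 fold change -1.45 ± 0.19), and GBP1 (-1.08) and IDO1 (-3.17) made up the rest. The edge count of 1 became 5 without wound 1327C, 4 without animal 1327 or without the replicate block and 3 with DESeq2, with ISG15 called in each of these fits. The center count was 1 without animal 1328.

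Proliferation genes did not differ detectably between edge and center. Of 33 cell cycle and mitosis genes tested 0 passed in either direction with edgeR (0 at an unadjusted p below 0.05), at a median log2 fold change of -0.06 and a range from -0.42 to 0.42, and 0 passed under any alternative, DESeq2 included. MKI67, the proliferation antigen, was at 37.7 to 80.4 CPM (median 54.2) at the edge and 39.6 to 168 CPM (median 58.7) in the center (log2 fold change -0.39 ± 0.30, edgeR adjusted p = 0.381). TOP2A, the mitotic topoisomerase, was at 43.7 to 75.9 CPM (median 62.5) against 43.5 to 148 CPM (median 68.4), a log2 fold change of -0.29 ± 0.28 (edgeR adjusted p = 0.462). CCNB1, a mitotic cyclin, was at 16.5 to 31.0 CPM (median 25.7) against 17.9 to 48.9 CPM (median 23.5), a log2 fold change of -0.01 ± 0.23 (edgeR adjusted p = 0.978). The highest levels of MKI67 were in the centers of 1326C and 1327C, at 161 and 168 CPM. A p above the threshold does not show that the locations were alike.

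Transcription factors that carry positional information were called in both directions. Of 35 tested, 6 were higher at the edge and 4 in the center. Neither count exceeded the share of all genes (18.0% and 14.2%), and the median log2 fold change was 0.016 beside 0.004 for all genes. HOXA3 (1.57), HOXC6 (0.87) and HOXC8 (0.57), of the HOX clusters, were higher at the edge. The limb factor PITX1 was at 20.3 to 245 CPM (median 93.7) against 0.564 to 39.3 CPM (median 3.74), a log2 fold change of 3.94 ± 1.09 (edgeR adjusted p = 0.0254) with 1.201 to 32.5 CPM (median 4.69) in day 0 skin, and its centers of 1326J and 1328C held 36.2 and 39.3 CPM, as much as the lower edges. TBX4, another limb factor, was low, at 0.742 to 3.60 CPM (median 1.53) against 0.125 to 0.616 CPM (median 0.367), a log2 fold change of 2.41 ± 0.42 (edgeR adjusted p = 0.00325). In the center were TBX2 (-1.03), TBX3 (-1.11), TBX18 (-0.58) and HOXD4 (-0.77). The 6 edge and 4 center calls became 2 and 2 without animal 1326, 3 and 2 without wound 1327C, 3 and 3 without wound 1328J or animal 1328, and 3 and 2 without wounds 1326J and 1328C. Without wound 1327J the center calls were 2.

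Markers of other tissues that a biopsy could hold were checked as well. Fat genes varied by wound more than by location: ADIPOQ (adiponectin), of adipocytes, was at 13.1 to 1959 CPM (median 390.4) at the edge and 1.16 to 1636 CPM (median 411) in the center (log2 fold change 0.66 ± 0.67, edgeR adjusted p = 0.502), lowest on both sides in wound 1327C and at 1393 and 1636 CPM in 1328J. Of 15 fat genes tested 3 were higher at the edge, FASN (1.08), SCD (1.52) and DGAT2 (1.48), enzymes of lipid synthesis that epidermis and sebaceous glands share, and 0 in the center. Of 9 nerve genes tested ERBB3 (3.49), a receptor that epithelia express, NGFR (2.06), the low-affinity neurotrophin receptor, and L1CAM (0.98), a cell adhesion protein, were higher at the edge. This count of 3 became 5 without wound 1326J and 2 without the replicate block or with the wounds of an animal summed, and L1CAM was not called in the latter 2 fits nor without animal 1326 or animal 1327. The 3 fat calls became 1 without animal 1328 or without the replicate block. Of 6 tested skeletal muscle genes 1 was higher in the center (TNNI2), the defining ACTA1 had at most 0.281 CPM in any of the 12 samples, and of 3 erythrocyte genes 0 passed. HBB, a globin on 3 rows, was at 10.3 to 204 CPM (median 37.9) against 5.29 to 150.1 CPM (median 44.7), a log2 fold change of 0.12 ± 0.46 (edgeR adjusted p = 0.874). Of 5 tested mast cell genes 1 passed, KIT (-0.69), a receptor shared with melanocytes.

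Wound by wound, the edge minus center difference of a list's mean log2(1 + CPM) was steady for some lists and not for others. For the suprabasal list it was 5.54 in 1326C, 3.31 in 1326J, 6.69 in 1327C, 6.03 in 1327J, 4.42 in 1328C and 6.06 in 1328J. For the macrophage list it was -1.41 in 1326C, -1.29 in 1326J, -1.49 in 1327C, -0.86 in 1327J, -1.86 in 1328C and -1.40 in 1328J. Basal genes gave 2.23 in 1326C, 1.01 in 1326J, 3.93 in 1327C, 3.95 in 1327J, 0.05 in 1328C and 3.83 in 1328J, so wound 1328C showed no difference on this scale and the wounds of animal 1327 the largest ones. The interleukin-1 list gave -0.17 in 1326C, -0.60 in 1326J, -3.20 in 1327C, -0.48 in 1327J, -2.13 in 1328C and -0.85 in 1328J. A test of whether the 3 animals differed in the edge against center difference called 0 genes with edgeR (441 of 14166 at an unadjusted p below 0.05). With 2 wounds per animal a p above the threshold does not show that the animals were alike. Its lowest p among genes with a symbol was that of CX3CL1, a membrane-bound chemokine, at 12.2 to 59.4 CPM (median 35.3) against 10.04 to 32.2 CPM (median 11.5). CYP3A29, of drug metabolism, followed, which was higher at the edge in animal 1326 and in the center in animal 1328.

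**Figure D3:**
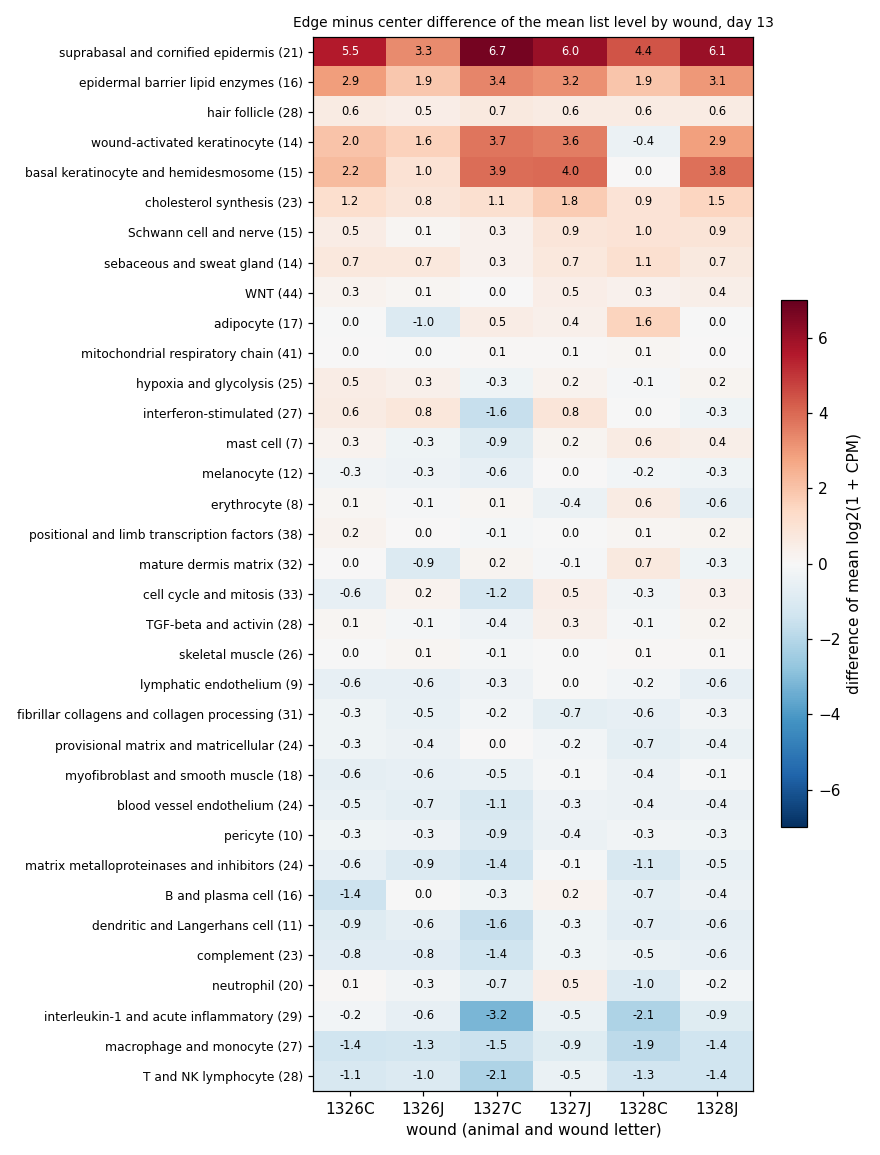
Edge minus center difference of the mean log2(1 + CPM) of each gene list (rows, with the number of genes) in each of the 6 wounds (columns); red is higher at the edge and blue in the center. The suprabasal row is red throughout (3.31 to 6.69), whereas the basal row runs from 0.05 in 1328C to 3.95 in 1327J.

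The same contrast was fitted on the neighbouring days to ask whether day 13 stood apart. Days 9 (6 wounds, E and H) and 16 (3 wounds, D) come from the same 3 animals, while day 11 comes from the other 3 animals (1323, 1324 and 1325), so that day and animals cannot be told apart there. In tests of the change between days edgeR called 0 genes for day 13 against day 9 (1065 of 15109 at an unadjusted p below 0.05, and 42, or 0.278%, with DESeq2). It called 0 against day 16 (968 of 15423 unadjusted, and 6, or 0.0389%, with DESeq2) and 0 against day 11 (849 of 15076 unadjusted, and 16, or 0.106%, with DESeq2). With 3 to 6 wounds per day, a p above the threshold does not show that the days were alike.

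Side by side, the median log2 fold change of the suprabasal list was 7.69, 7.80, 6.23 and 5.77 on days 9, 11, 13 and 16, over its 21 members tested each time. In the same order of days the basal list had 4.15, 4.39, 3.05 and 0.92. The macrophage list had -1.41, -1.64, -1.35 and -1.29, and the T and NK lymphocyte list, over the 25 members tested each time, -0.85, -1.46, -1.73 and -0.95. Cholesterol synthesis genes stood at 0.95, 0.75, 1.37 and 0.74. The wound-activated keratinocyte list went from 5.57 on day 9 to 3.40 on day 13 and 0.20 on day 16.

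No gene passed edgeR's test of a change between days, and the genes given here are only some of those with a low p. SIT1, an adaptor that restrains T cell receptor signals, was higher in the center by more on day 13 (-1.83) than on day 9 (-0.15), a difference of -1.68 ± 0.23 (edgeR adjusted p = 0.0729). CD3E went from -0.65 on day 9 to -2.0 on day 13 (difference -1.35 ± 0.27, edgeR adjusted p = 0.36), BLK from -0.78 to -2.41 and CD163L1, a scavenger receptor of macrophages and gamma-delta T cells, from -0.30 to -2.73. SYTL1, a vesicle transport protein of epithelia, was higher at the edge by less on day 13 (2.91) than on day 9 (5.04), with an edgeR adjusted p of 0.0729. Against day 16 the lowest p was that of KRT27, of the hair follicle, at 7.16 on day 16 and too low to test on day 13 (edgeR adjusted p = 0.422), and KRT85, a hair shaft keratin, went with it (6.56 on day 16). Against day 11 the lowest p was that of CDPF1, 0.23 on day 13 and 1.00 on day 11 (edgeR adjusted p = 0.797).

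**Figure D4:**
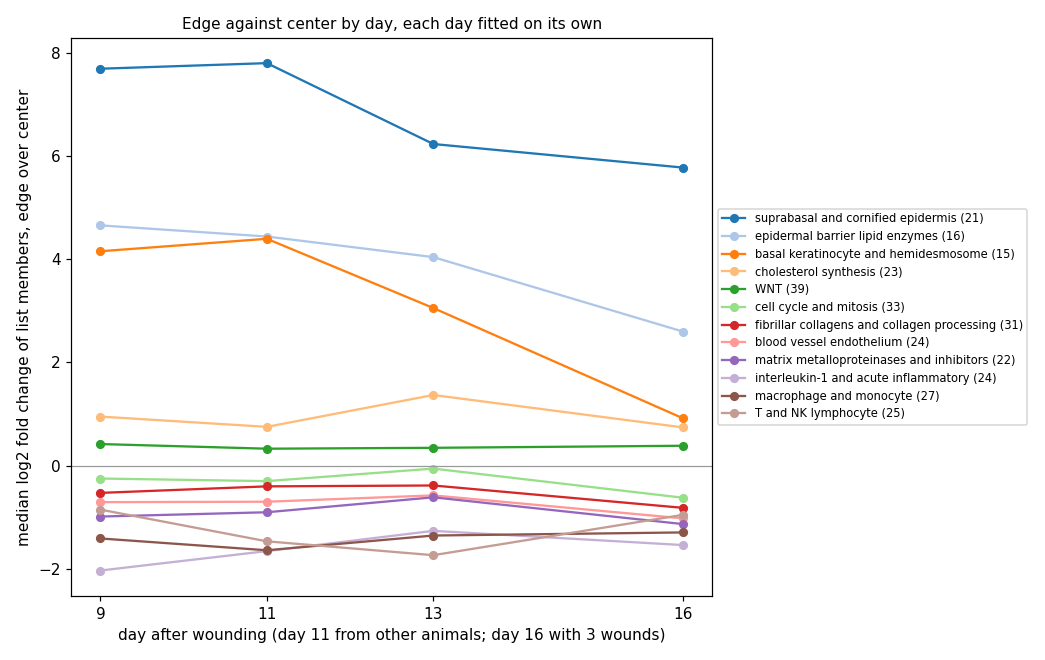
Median log2 fold change of edge over center for 12 gene lists on days 9, 11, 13 and 16, each day fitted on its own; the number of members tested on all 4 days is in brackets. The suprabasal list is uppermost on each day (6.23 on day 13) and the macrophage and lymphocyte lists stay below 0; day 11 comes from other animals and day 16 has 3 wounds.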

How the data were processed

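RNA of 12 day 13 biopsies was compared, with the edge and center samples of the other days and the 6 day 0 samples used where named. Per the paper's methods, the sequencing provider removed adapter, poly-N and low-quality reads, aligned the rest and counted them per gene for the authors. The aligner, counting tool and genome build are not given in the sources used here, so no coordinates are given. The values used are the deposited raw counts (30461 genes, 23017 with a count on day 13). The deposited FPKM values, which the authors scaled by gene length and library, entered no test.

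The quasi-likelihood test of edgeR 4.0.16 (R 4.3.3) was applied after TMM scaling, with the wound as a block. Low genes were dropped by filterByExpr (count 10, total 15), and an adjusted p (Benjamini-Hochberg) below 0.05 made a call. The block comes from the labels, since edge and center of a pair are the same wound. Deviations from the group means correlated by 0.336 on average within a wound (-0.021 to 0.534, above 0.1 in 5 of 6) and by -0.067 between wounds. The latter is not an independent value, since the deviations of the 6 samples of a location sum to 0. With the other wound of the same animal the mean was 0.129 (-0.049 to 0.510). CPM were scaled to library totals, and standard errors are the log2 fold change over the root of F. The code was tested on simulated data.

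Names came from the deposited name column (12300 genes) or a protein identifier matched to RefSeq (9387 genes), and 654 tested genes had no symbol. Genes on several rows may share reads. Some genes are not reported here. The 35 gene lists hold 848 entries, of which 767 genes were matched, and list levels are means of log2(CPM + 1). The members and lists were chosen with earlier results of these data known. Genes are named if they are among the 15 largest differences per direction that hold in 6 of 6 wounds at a mean of at least 1 CPM, among the 6 lowest p per list and direction, the first 3 of a list, the lowest p of the day and animal tests or the 5 largest shares of counts, or if they are IL1B or KRT10. Alternatives were no block, other scalings, DESeq2 1.42.0, limma 3.58.1 (voom), no filter, omission of each wound or animal, wounds summed per animal and 1 fit over all days. The omission of wounds 1326J and 1328C was added after seeing the data. Lists and figures were made with Python 3.11.15, pandas 2.3.3 and matplotlib 3.10.9.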

Additional observations from a re-analysis of the deposited data

Results flagged for a closer look

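Among 136 groups of 6 samples tested, 15 had a sample far from the others by Dixon's 95% limit, where chance gives about 1 in 20 (6.8). The edge of wound 1327J accounted for 8 of them. In that sample the mean log2(1 + CPM) of the interleukin-1 list was 4.20 (other edges 2.58 to 3.14) and that of the neutrophil list 5.14 (3.86 to 4.28). Single genes on the same scale were SAA2 at 8.07 (2.18 to 3.49), IL1B at 3.70 (0.48 to 1.61), CSF3 at 2.21 (0.23 to 0.87), UPB1 at 1.87 (0 to 0.38), CEACAM4 at 1.59 (0 to 0.49) and IL27 at 1.46 (0 to 0.51).

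The center of wound 1327C had the highest mean level of the dendritic cell list, 5.30 (other centers 3.83 to 4.32), and of the mast cell list, 2.97 (1.91 to 2.13). The provisional matrix list was lowest at the edge of 1328C, 7.25 (other edges 7.42 to 7.52). KRT2 was at 3.65 at the edge of 1326J (8.53 to 11.3 at the others), and C1QL2 at 2.14 in the center of 1326C (4.36 to 4.87). A few counts set apart CYP4A6 in the centers, at 0.615 in 1328C (0 to 0.170 elsewhere) and RPTN, at 0.170 in 1326J (0 elsewhere).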

How the results depend on the processing

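Leaving out 1 wound gave 3465 to 4076 genes differing between edge and center, 1995 to 2295 higher at the edge and 1470 to 1781 in the center. Without animal 1326 there were 2493 (1502 at the edge, 991 in the center), and without wounds 1326J and 1328C, a choice made after seeing the data, 3072 (1860 and 1212). Both fits use 4 wounds. Without the replicate block that pairs edge and center of a wound there were 4024. IL1B missed the threshold with the block (-3.23, edgeR adjusted p = 0.0504) and passed without it (-3.93), but it also passed with the block under DESeq2, limma voom and no filter. Of the 251 called named genes 216 passed without the block. With the wounds of an animal summed, so that animals are the replicates, there were 3369 (1880 at the edge, 1489 in the center). Median-of-ratios size factors, limma voom, DESeq2 and no filter gave 4334 to 4994 calls, and 1 fit over all days 5354. Library size without TMM turned the split from 2550 at the edge and 2014 in the center to 2055 and 2446. The cause was not tested.

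For the change between days edgeR called 0 genes. DESeq2 called 42 against day 9, 6 against day 16 and 16 against day 11, and the fit without the replicate block called 1 against day 11. Of 306 named genes tested 0 took the opposite direction from the reported fit where it was called in either. Of the 251 called, 199 passed without each wound in turn and 206 without wounds 1326J and 1328C. Without animal 1326 the number was 182, without animal 1327 it was 202 and without animal 1328 it was 199. Under all of the 8 other alternatives, which omit no wound or animal, 177 passed. Depth limits genes near 3 counts, 0.148 to 0.211 CPM, and with 6 wounds from 3 animals differences between animals could not be resolved.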
